A study of Mus musculus with 6 samples.

Results

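The genes described here are 9 feedback inhibitors of MAP kinase signalling: the phosphatase genes Dusp1, Dusp2, Dusp4, Dusp5 and Dusp6, the Sprouty genes Spry1 and Spry2, and the related genes Spred1 and Spred2. They were taken by symbol from a table of 55487 mouse genes, and all 9 passed the filter on low values. The series compared total RNA of 6 libraries from bone marrow cells positive for Kit, the receptor for stem cell factor. In the WT group (n = 3) the cells had been given a lentivirus that overexpresses wild type MLLT3, and in the DM group (n = 3) a lentivirus that overexpresses MLLT3 with the substitutions K63E and K67E. Both groups were sorted and grown in methylcellulose for 8 days; the medium held Flt3L at 10 ng/mL, with further cytokines, among them EPO, SCF, GM-CSF, IL-3, IL-6 and IL-11, at 20 ng/mL each, and with 4-hydroxytamoxifen at 200 nM to delete endogenous Mllt3. Targeted deletion was thus common to both groups, and cells with no MLLT3 vector were not analysed here. The promoter of the vector, the Cre driver, the age and the strain of the mice are not given in the sources used here. The labels put all 6 libraries in batch 1 and do not say whether replicates came from separate animals or cultures, so p-values measure only the spread between these libraries.

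Cytokine receptors such as Kit and Flt3 switch on RAS, which passes the signal through RAF and MEK to the kinase ERK, while the related kinases p38 and JNK respond mainly to stress. ERK and its relatives then induce their own inhibitors. DUSP proteins remove the activating phosphates from MAP kinases, whereas Sprouty and SPRED proteins act upstream, at RAS and RAF. Transcript levels of these genes are therefore often read as a trace of recent MAP kinase activity, and in blood progenitors the SPRED proteins are known to restrain signals from Kit.

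Levels are given as rlog (regularized log) values, which is read from the name of the deposited values. The rlog is a log2 scale that is scaled between libraries and that pulls weakly measured genes toward their mean. The median over the 18766 genes tested lay between 8.03 and 8.11 in the 6 libraries, and the depth of the libraries is unknown because the values hold no counts. Mllt3, the targeted gene and the gene on the vector, had rlog values of 12.87, 12.6 and 12.44 in WT cells and 12.44, 12.03 and 11.99 in DM cells (change -0.48, limma adjusted p 0.0448). The Mllt3 call was lost without the mean-variance trend (-0.48, adjusted p 0.0542), without WT replicate 1 (-0.36, 0.152), WT replicate 2 (-0.5, 0.0606), DM replicate 2 (-0.42, 0.15) or DM replicate 3 (-0.4, 0.161), and vector and endogenous transcripts are not separated. Kit, which defines the sorted cells, stood at 14.58, 14.32 and 14.29 in WT and at 14.9, 14.3 and 14.59 in DM.

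Of the 9 feedback genes, 1 changed between DM and WT at a limma adjusted p under 0.05, and this was Dusp1, which was higher in DM. That is 11.1% of the members, against 13.9% of all genes tested (9.2% called higher and 4.71% called lower), so the share called was close to that of all genes. The mean was higher in DM for 8 members and lower for 1, Dusp2, and 51.6% of all genes tested had a higher mean in DM. The median change of the members was 0.13 on the log2 scale, against 0.01 over all genes tested. It was 0.07 after quantile normalization and 0.09 with libraries centred on their median. Every member differed by less than 0.5 in size. At an unadjusted p under 0.05 there were 3 members (Dusp1, Dusp2 and Spred1), against 28.9% of all genes tested. The WT and DM values did not overlap for 4 members (44.4%), Dusp1, Spry2 and Spred2 with DM higher and Dusp2 with DM lower, against 35.8% of all genes tested. Of all genes called, 66.1% were higher in DM, and after quantile normalization 51.3% were.

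**Figure D1:**
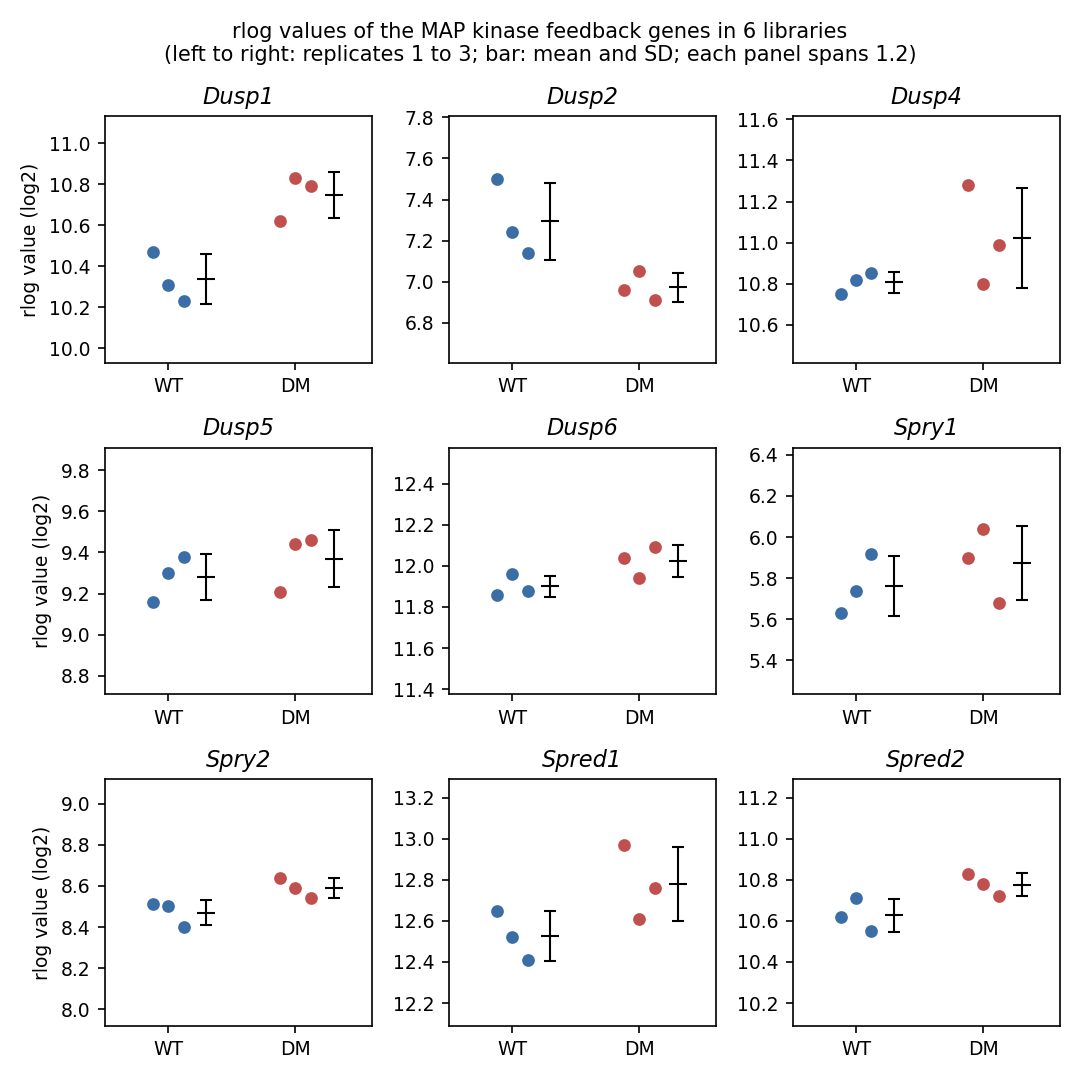
rlog values (log2 scale, y axis) of the 9 genes in the 3 WT and 3 DM libraries, with the mean and SD beside the points; every panel spans the same range of 1.2. Dusp1 is the gene with the widest gap between the groups, Dusp2 is the gene with lower DM values, and the DM points of Dusp4 and Spred1 are spread more widely than their WT points.

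Dusp1 (ENSMUSG00000024190.7; chromosome 17, 26505590 to 26562128, minus strand, protein coding, GENCODE M21 on GRCm38, the assembly also called mm10) encodes a nuclear phosphatase induced early by growth factors and stress, which acts on p38, JNK and ERK. Its rlog values were 10.47, 10.31 and 10.23 in WT cells (replicates 1, 2 and 3) and 10.62, 10.83 and 10.79 in DM cells. The lowest DM value lay above the highest WT value. The mean went from 10.34 ± 0.122 (SD, n = 3) to 10.75 ± 0.114, a change of 0.41 (SE 0.0855, 95% interval 0.22 to 0.6, limma adjusted p 0.013), which is 1.33-fold. Dropping DM replicate 2 (0.37, adjusted p 0.0596) or DM replicate 3 (0.39, adjusted p 0.0537) ended the call, within a range of 0.00726 to 0.0596 over the 12 alternatives.

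The annotated span of Dusp1 is long because some of its transcripts have exons far upstream, up to 53.7 kb before the RefSeq start. These hold 614 of its 3311 exon bases, and 11 of them are shared with Ergic1, a gene of the secretory pathway on the opposite strand. The shared bases are 0.3% of the exon bases of Dusp1 and 0.12% of those of Ergic1. Ergic1 was also higher in DM, with rlog values of 11.42, 11.52 and 11.18 in WT cells and 11.7, 11.86 and 11.74 in DM cells (change 0.39, limma adjusted p 0.0229). The call of Ergic1 was lost without WT replicate 1 (0.41, adjusted p 0.0612), DM replicate 2 (0.34, 0.0956) or DM replicate 3 (0.4, 0.0671). Whether the counting used strand is not given in the sources used here, so reads from the shared bases cannot be told apart.

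Dusp2 (ENSMUSG00000027368.6; chromosome 2, 127336159 to 127338376, plus strand) encodes a nuclear phosphatase found mainly in blood cells. Its rlog values were 7.5, 7.24 and 7.14 in WT cells and 6.96, 7.05 and 6.91 in DM cells. All DM values lay below all WT values, by a gap of 0.09 between the nearest libraries. Means were 7.29 ± 0.187 (SD, n = 3) for WT and 6.97 ± 0.0712 for DM, which is a difference of -0.32 (SE 0.0969, 95% interval -0.54 to -0.1). It missed the threshold (limma adjusted p 0.0556, from 0.0303 to 0.174 over the alternatives). It passed without WT replicate 3 (-0.4, adjusted p 0.0303), with each library centred on its median (-0.35, 0.0406), and among genes with a mean of at least 5 (-0.32, 0.0354).

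Dusp4 (ENSMUSG00000031530.6; chromosome 8, 34807297 to 34819894, plus strand), which encodes another inducible nuclear phosphatase, had rlog values of 10.75, 10.82 and 10.85 in WT cells and 11.28, 10.8 and 10.99 in DM cells. DM replicate 1 stood highest, while DM replicate 2 lay within the WT values. Means were 10.81 ± 0.0545 (SD, n = 3) for WT and 11.02 ± 0.24 for DM, which is a difference of 0.22 (95% interval -0.02 to 0.46, limma adjusted p 0.212). Without DM replicate 1 the difference of Dusp4 was 0.09, and without DM replicate 2 it was 0.33. Dusp5 (ENSMUSG00000034765.6; chromosome 19, 53529109 to 53542431, plus strand) encodes a nuclear phosphatase specific to ERK. Its rlog values were 9.16, 9.3 and 9.38 in WT cells and 9.21, 9.44 and 9.46 in DM cells, and the groups overlapped. The difference of Dusp5 was 0.09 (95% interval -0.11 to 0.3, limma adjusted p 0.507). An antisense gene, AC137853.2, covers 547 (22.1%) of the exon bases of Dusp5, and its rlog values were between 3.89 and 3.99 in all 6 libraries.

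Dusp6 (ENSMUSG00000019960.8; chromosome 10, 99263231 to 99267489, plus strand), the cytoplasmic phosphatase specific to ERK and a common readout of ERK activity, had rlog values of 11.86, 11.96 and 11.88 in WT cells and 12.04, 11.94 and 12.09 in DM cells. The highest WT value lay just above the lowest DM value. Means were 11.9 ± 0.0509 (SD, n = 3) in WT and 12.02 ± 0.078 in DM. The difference of Dusp6 was 0.13 (95% interval -0.03 to 0.28, limma adjusted p 0.264), so a change of more than 0.28 lay outside its interval. Dusp6 was among the members with the least spread between replicates, and its difference of 0.13 was the median of the 9.

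The Sprouty genes encode membrane-recruited inhibitors that are induced by ERK signalling and limit it. Spry1 (ENSMUSG00000037211.12; chromosome 3, 37639947 to 37644598, plus strand) had rlog values of 5.63, 5.74 and 5.92 in WT cells and 5.9, 6.04 and 5.68 in DM cells, with broad overlap of the groups. Its difference was 0.11 (95% interval -0.13 to 0.34, limma adjusted p 0.521). Gm42922, annotated on the opposite strand, shares 710 (24.4%) of the exon bases of Spry1 and had rlog values from 1.96 to 2.08. Spry2 (ENSMUSG00000022114.5; chromosome 14, 105891947 to 105896819, minus strand) had rlog values of 8.51, 8.5 and 8.4 in WT cells and 8.64, 8.59 and 8.54 in DM cells. Its groups did not overlap, with a gap of 0.03 between the nearest libraries. The difference of Spry2 was 0.12 (95% interval -0.03 to 0.27, limma adjusted p 0.278).

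The SPRED proteins share the Sprouty domain and bring neurofibromin, which turns RAS off, to the membrane. Spred1 (ENSMUSG00000027351.14; chromosome 2, 117121374 to 117182279, plus strand) had rlog values of 12.65, 12.52 and 12.41 in WT cells and 12.97, 12.61 and 12.76 in DM cells. DM replicate 1 was highest and DM replicate 2 lay below WT replicate 1. Means were 12.53 ± 0.119 (SD, n = 3) for WT and 12.78 ± 0.182 for DM, which is a difference of 0.25 (SE 0.103, 95% interval 0.02 to 0.48, limma adjusted p 0.141). Without DM replicate 1 its difference was 0.15. Spred2 (ENSMUSG00000045671.17; chromosome 11, 19924375 to 20024026, plus strand) had rlog values of 10.62, 10.71 and 10.55 in WT cells and 10.83, 10.78 and 10.72 in DM cells, which did not overlap but came within 0.006 of each other. The difference of Spred2 was 0.15 (95% interval -0.01 to 0.3, limma adjusted p 0.195). In DM, Kit followed the order of Dusp4 and Spred1, highest in replicate 1 and lowest in replicate 2. In WT, Kit and Spred1 fell from replicate 1 to replicate 3, whereas Dusp4 rose. The part of Kit in the spread of Dusp4 and Spred1 was not tested.

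**Figure D2:**
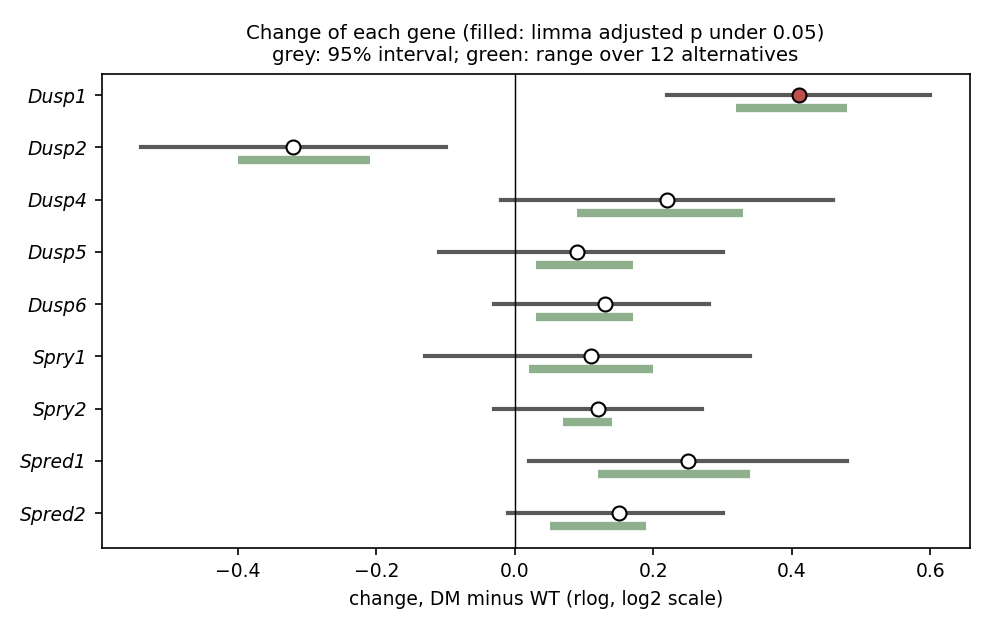
Difference of mean rlog values, DM minus WT (log2 scale, x axis), for each gene, with its 95% interval in grey and its range over 12 alternatives in green. Only Dusp1 is filled as called, Dusp2 is the 1 gene left of zero, and no green range crosses zero.

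The differences of the 9 members kept their sign under all 12 alternatives. Differences between members within a library do not depend on a constant added to all values of that library, and they were compared for all 36 pairs, as a description with no test. The gap between Dusp1 and Dusp2 was 2.97, 3.08 and 3.09 in WT cells and 3.66, 3.79 and 3.89 in DM cells. It was thus wider in every DM library than in every WT library, by 0.73 on average, and by 0.63 after quantile normalization, which was tried here after seeing the data. Of the 36 pairs, 9 (25%) had groups that did not overlap, against 39.5% of all pairs of genes tested. Quantile normalization left 5, but the share of all pairs was not computed after it, so the 5 cannot be compared. All 9 held Dusp1 or Dusp2. By this measure Dusp2 was lower in DM relative to 7 of the 8 other members, all but Spry1, and Dusp1 was higher relative to Dusp2, Dusp5 and Spry2. No pair among the other 7 members separated the groups. These counts restate the changes of Dusp1 and Dusp2 given above and add no separate support. The share of 25% was below that of all pairs, and shares for the pairs of a single gene were not computed.

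Levels were compared between genes after subtracting the log2 of the merged exon length in kb from the rlog value. On this scale Dusp6 was highest, at 10.25 ± 0.0509 (SD, n = 3) in WT and 10.38 ± 0.078 in DM. It was followed by Spred1 (9.77 ± 0.119 in WT) and Dusp4 (9.35 ± 0.0545). Dusp1 (8.61 ± 0.122) and Spred2 (8.42 ± 0.0828) came next and overlapped in WT, where the lowest Dusp1 library was at 8.5 and the highest Spred2 library at 8.51, whereas in DM they did not overlap. Dusp5 (7.97 ± 0.115), Spry2 (7.41 ± 0.0641) and Dusp2 (6.29 ± 0.187) followed, and Spry1 was lowest at 4.23 ± 0.15. Apart from Dusp1 and Spred2 in WT, neighbours in this order did not overlap within either group, and the order of all 9 was the same in DM as in WT. The exon length counts all annotated transcripts, so a gene that uses short transcripts would stand too low. This could hold for Dusp1 with its far upstream exons, but the use of transcripts was not measured.

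**Figure D3:**
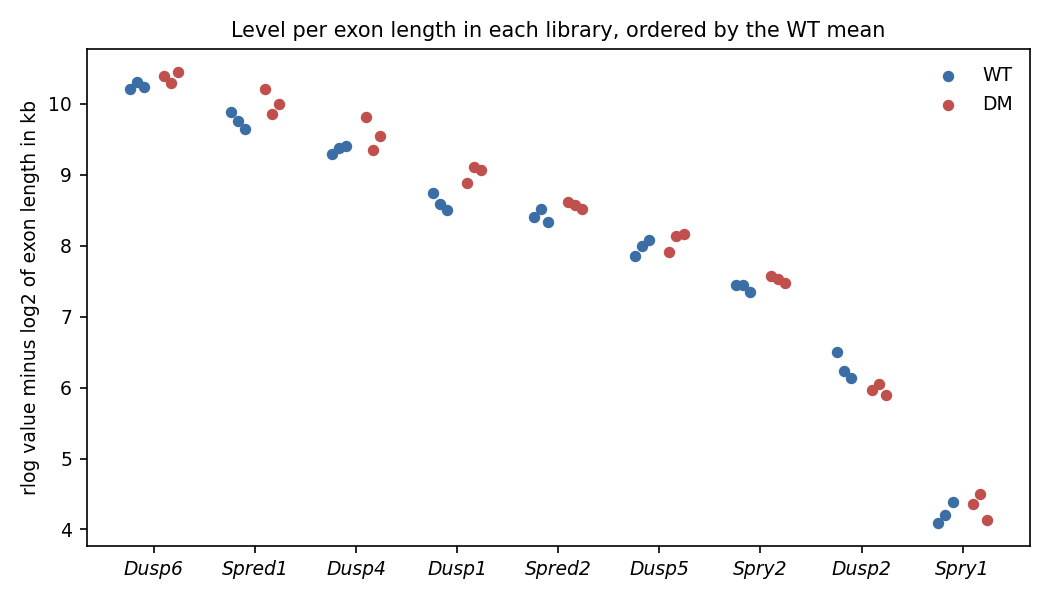
Level per exon length (rlog minus log2 of the exon length in kb, y axis) of the 9 genes in each library, ordered by the WT mean. Dusp6 is highest and Spry1 lowest in both groups, and the WT and DM points of each gene lie close together beside the full range of levels from Spry1 to Dusp6.

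The bases before the transcription start are shown for Dusp1, the member that changed, for Dusp2, the member with a lower mean in DM, and for Dusp5, the member with CArG boxes. RefSeq (GRCm38.p6) gave a start for 8 of the 9 members, all but Dusp4. The 250 bases before it were searched on both strands for TGACGT (the core of the cAMP response element bound by CREB and ATF proteins), TGANTCA (AP-1), CCGGAA (ETS factors), CACGTG (E-box) and the CArG box of serum response factor, and TGACGT can overlap its own reverse complement. Capitals mark the matches. The windows are chr17:26508473-26508722 on the minus strand for Dusp1, chr2:127335909-127336158 on the plus strand for Dusp2 and chr19:53528895-53529144 on the plus strand for Dusp5.
Dusp1: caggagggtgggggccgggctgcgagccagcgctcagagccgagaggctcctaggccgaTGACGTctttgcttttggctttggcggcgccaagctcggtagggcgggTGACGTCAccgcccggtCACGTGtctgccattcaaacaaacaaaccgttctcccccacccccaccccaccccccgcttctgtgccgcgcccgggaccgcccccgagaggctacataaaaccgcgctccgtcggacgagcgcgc
Dusp2: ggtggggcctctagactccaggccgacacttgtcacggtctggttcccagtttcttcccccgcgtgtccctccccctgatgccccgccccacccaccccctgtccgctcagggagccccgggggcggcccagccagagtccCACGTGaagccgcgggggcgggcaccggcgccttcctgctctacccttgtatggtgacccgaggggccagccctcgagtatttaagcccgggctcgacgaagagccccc
Dusp5: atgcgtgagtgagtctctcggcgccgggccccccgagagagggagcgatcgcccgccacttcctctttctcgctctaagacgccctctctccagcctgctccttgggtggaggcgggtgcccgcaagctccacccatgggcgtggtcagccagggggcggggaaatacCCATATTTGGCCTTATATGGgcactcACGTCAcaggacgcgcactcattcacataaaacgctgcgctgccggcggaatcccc

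Dusp1 held TGACGT at 2 separate places, the first from 191 to 186 bases before the start and the other from 143 to 136 bases, which is found in 0.396% of 32851 windows of this length. A single TGACGT or more was found in 6.47% of windows, and among the members also in Dusp5 (56 to 51 bases before the start) and Spred2 (52 to 47 bases). The GENCODE start of Spred2 (19924375) lies inside its RefSeq window (19924192 to 19924441), and the match in Spred2 lies downstream of that GENCODE start. Dusp1 and Dusp2 both held CACGTG, which 6.02% of windows hold. Dusp5 held a pair of adjoining CArG boxes from 82 to 63 bases before the start, and 1.47% of windows hold any. The windows of Dusp6, Spry1, Spry2 and Spred1 held no match to the 5 motifs. GC content ran from 56% in Spred2 to 70.8% in Spred1, against a median of 52.4% over all windows. The Dusp1 window held the letters CG 28 times, against a median of 6 over all windows, and TGACGT itself holds CG. The share with TGACGT among windows equally rich in CG was not computed. A match of letters is a description and not a measured binding site.

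**Figure D4:**
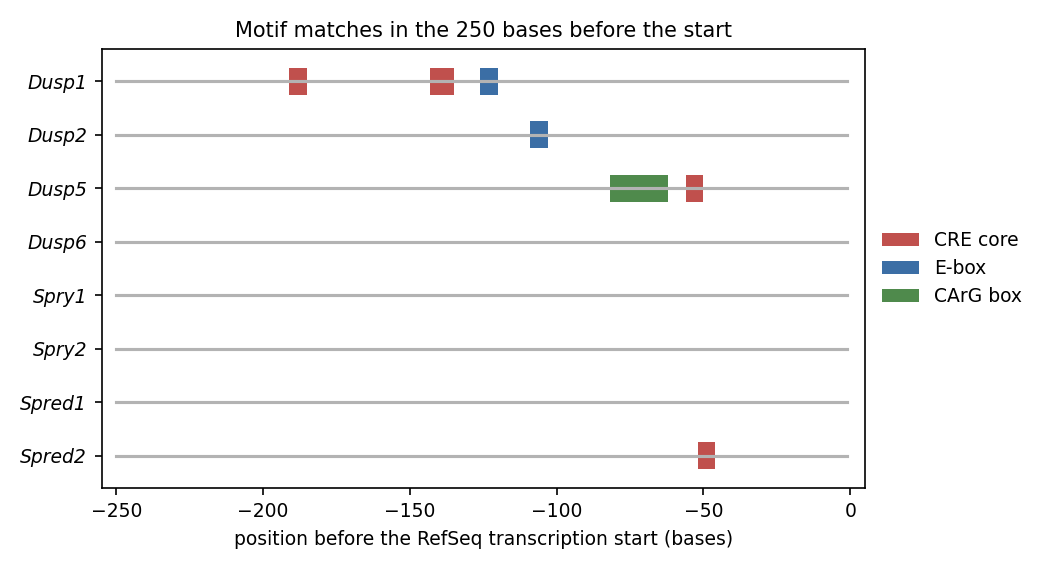
Positions of the motif matches (x axis, bases before the RefSeq start) in the 250-base windows of 8 members. Dusp1 carries 2 places with the cAMP response element core and 1 E-box, Dusp2 carries 1 E-box, Dusp5 carries adjoining CArG boxes beside 1 core, and 4 windows are empty.

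Other genes of the wider DUSP family, not all of the same kind as the members, were examined as a list of 12. Of these, 3 were called, all 3 higher (25%, against 9.2% of all genes), and the median change was 0.13. By limma 0 were called lower, and 0 were lower at an unadjusted p under 0.05. Dusp3, a small phosphatase of ERK and JNK, had rlog values of 11.42, 11.64 and 11.35 in WT cells and 12.04, 12.18 and 11.96 in DM cells. The groups were well apart, and the change of Dusp3 was 0.59 (SE 0.0929, limma adjusted p 0.00531), against 0.41 for Dusp1, though the difference between these changes was not tested. Dusp22 went from 7.73, 7.94 and 7.95 to 8.23, 8.48 and 8.4, a change of 0.5 (limma adjusted p 0.00833). Dusp7, a cytoplasmic relative of Dusp6, changed by 0.29 (adjusted p 0.0318), and lost its call without the filter (0.29, 0.0601), after quantile normalization (0.19, 0.0624), and without WT replicate 1 (0.26, 0.128), WT replicate 3 (0.27, 0.064), DM replicate 2 (0.24, 0.137) or DM replicate 3 (0.3, 0.0837).

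Other inhibitors of RAS and ERK numbered 16, of which 15 were tested and 3 were called (20%, against 13.9% of all genes), 2 higher and 1 lower. Their median of 0.09 was 0 after quantile normalization and 0.03 without WT replicate 1. Rasa4 and Rasa1, which encode GTPase activating proteins that turn RAS off, rose by 0.54 (limma adjusted p 0.00705) and 0.28 (0.0185). Dab2ip, another such protein, fell by 0.4 on the log2 scale (adjusted p 0.0259). Rasa1 lost its call without WT replicate 1 (0.28, 0.0807), DM replicate 1 (0.29, 0.0533), DM replicate 2 (0.27, 0.0878) or DM replicate 3 (0.3, 0.0549), and Dab2ip without WT replicate 3 (-0.32, 0.0658), DM replicate 1 (-0.39, 0.066) or DM replicate 2 (-0.35, 0.0956). Without DM replicate 2 the count fell to 1. The remaining family members Spry4 (0.09, limma adjusted p 0.64) and Spred3 (-0.18, 0.198) did not pass, and Spry3 had too low a mean to be tested. Spry4 and Spred3 were named after their values were seen.

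The relay from adaptors to ERK held 25 genes, of which 4 were called higher (16%, against 9.2% of all genes) and 1 lower (4%, against 4.71%). Its median of 0.14 was 0.03 after quantile normalization. Rasgrp2, an exchange factor that loads RAP and RAS proteins with GTP, had rlog values of 10.11, 10.25 and 10.13 in WT cells and 8.77, 9.04 and 9.13 in DM cells. All DM values lay below the WT values, and Rasgrp2 fell by 1.18 (limma adjusted p 0.000164). Rps6ka2, a kinase activated by ERK, went from 9.97, 10.5 and 9.8 to 11.09, 11 and 10.87, a change of 0.9 (adjusted p 0.00689), and Gab1, a docking adaptor, changed by 0.56 (adjusted p 0.00743). The count of genes called in this relay was 3 without WT replicate 1 or DM replicate 2. The p38 and JNK relay held 21 genes with 1 called higher, Map3k8 (0.44, limma adjusted p 0.0334), and 1 lower, Mapk13 (-0.7, adjusted p 0.0239), which is 9.52% called against 13.9% of all genes. The count of 2 was 4 among genes with a mean of at least 5, 0 without WT replicate 3, 1 without WT replicate 1, DM replicate 2 or DM replicate 3, and 4 without WT replicate 2. Map3k8 lost its call after quantile normalization (0.37, 0.0641) and without WT replicate 1 (0.42, 0.106), WT replicate 3 (0.42, 0.0701), DM replicate 2 (0.43, 0.103) or DM replicate 3 (0.32, 0.108). Mapk13 lost its call without WT replicate 2 (-0.65, 0.0527), WT replicate 3 (-0.6, 0.0602) or DM replicate 2 (-0.75, 0.0519). The median of this list was 0.09, but -0.02 after quantile normalization and 0.14 without DM replicate 1.

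The list named ERK-responsive transcripts held 27 genes. Among them were Srf, Elk1, Elk3 and Elk4, which encode factors through which ERK acts. Of the 27, 10 were called higher (37%, against 9.2% of all genes), Elk1 and Elk3 among them. By limma 0 were called lower (0 lower at an unadjusted p under 0.05), and the median was 0.17. Egr2, an immediate early transcription factor, had rlog values of 10.53, 10.81 and 10.41 in WT cells and 11.27, 11.21 and 11.32 in DM cells, a change of 0.69 (SE 0.0989, limma adjusted p 0.00377). Ccnd1, which encodes cyclin D1, changed by 0.61 (adjusted p 0.0347) with overlapping groups, and Elk3, an ETS factor, by 0.42 (adjusted p 0.00773). Ccnd1 lost its call after quantile normalization (0.51, 0.0514) and without WT replicate 1 (0.61, 0.0941), WT replicate 3 (0.47, 0.0806), DM replicate 2 (0.49, 0.123) or DM replicate 3 (0.58, 0.115). The count of 10 depended on the scaling and on single libraries. It was 3 after quantile normalization (2 higher and 1 lower), 3 without WT replicate 1 or WT replicate 3, and 2 without DM replicate 2 or DM replicate 3. Egr1 (0.17, limma adjusted p 0.419), Etv4 (-0.16, 0.192) and Etv5 (0.06, 0.661), which respond to ERK like Dusp6 and were named after their values were seen, did not pass. They are among the 17 genes of the list not called. The rest of the 10 called higher were Fos (0.38), Fosl2 (0.34), Junb (0.28), Phlda1 (0.38), Zfp36 (0.34) and Mcl1 (0.34). Apart from Fos, these too were named after their values were seen.

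The receptors for the cytokines in the culture were a list of 11 genes, with 2 called higher and 1 called lower (27.3% called, against 13.9% of all genes). Their median of 0.2 was 0.06 after quantile normalization. Il11ra1 changed by 0.72 (limma adjusted p 0.0153), Csf2ra, the receptor chain for GM-CSF, by 0.5 (0.0409) and Flt3 by -0.3 (0.0494). Il11ra1 lost its call without WT replicate 1 (0.69, 0.0521) or DM replicate 2 (0.65, 0.0593). Csf2ra lost it after quantile normalization (0.38, 0.0725) and without WT replicate 1 (0.42, 0.14), WT replicate 3 (0.43, 0.0979), DM replicate 2 (0.42, 0.142) or DM replicate 3 (0.46, 0.132). Flt3, which has too low a mean for the stricter filter, lost it in 9 of its 11 alternatives, among them without WT replicate 1 (-0.23, 0.163), WT replicate 3 (-0.25, 0.101), DM replicate 1 (-0.3, 0.104), DM replicate 2 (-0.3, 0.122) or DM replicate 3 (-0.29, 0.133). The count of 3 for these receptors was 0 without WT replicate 1 or DM replicate 2, 1 without WT replicate 3 or DM replicate 3, and 1 after quantile normalization.

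**Figure D5:**
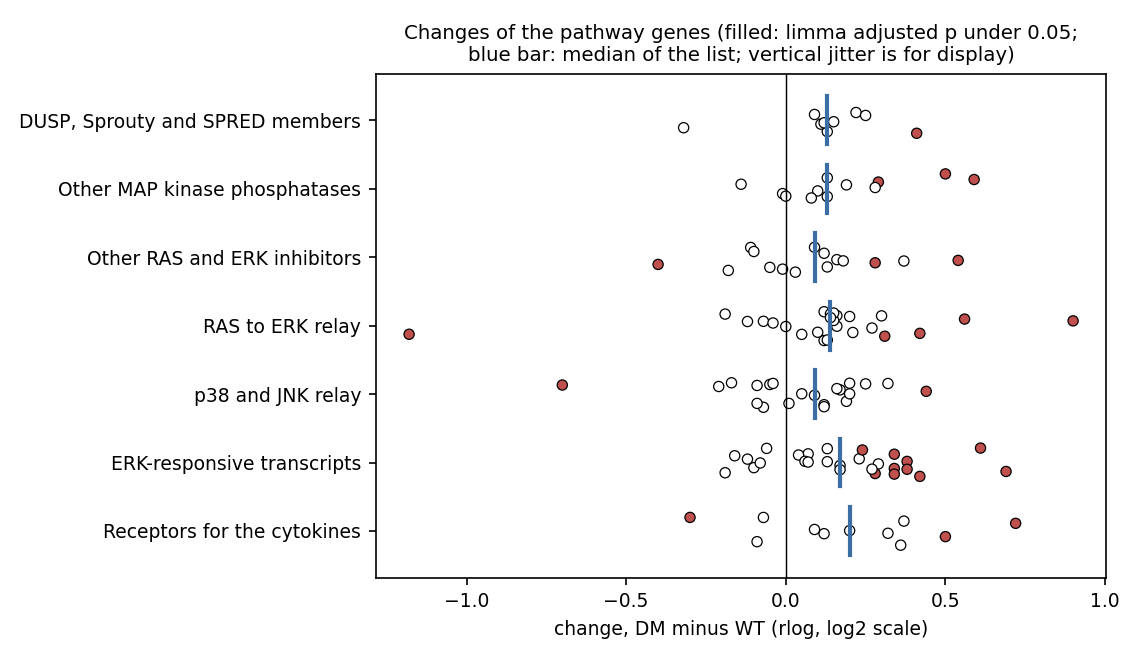
Change of each tested gene (DM minus WT, rlog on the log2 scale, x axis) in the 9 feedback genes and the 6 pathway lists, with called genes filled and list medians as blue bars. The 7 medians lie between 0.09 and 0.2 here, and between -0.02 and 0.14 after quantile normalization, and the largest fall is Rasgrp2 at -1.18.

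The pathway genes nearest to each member were sought among 111 tested genes of the lists, by the root mean square difference between rlog profiles centred on their mean over the 6 libraries. Nearest to Dusp1 was Fos, an immediate early gene (0.0693), followed by Elk3 (0.0753). Dusp2 was nearest to Flt3 (0.132), and its distance was the largest of the 9. Dusp6 was nearest to Mknk1 (0.0296) and Spry2 to Map2k2 (0.0329). Dusp4 and Spred1 had the same nearest gene, Map3k7 (0.0912 and 0.048). Dusp5 was nearest to Dusp16 (0.0805) and Spry1 to Dusp10 (0.0721), which are phosphatase genes.

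These are bulk samples, in which fewer cells of a type and less RNA per cell cannot be told apart, and the levels of neutrophil, monocyte and macrophage markers differed between groups. All 12 neutrophil lineage markers fell (median -1.7), and the log2 of their summed level was 18.47 to 18.9 in WT and 16.84 to 17.75 in DM. Of 11 tested monocyte and macrophage markers 10 rose (median 0.73), with a summed level of 18.26 to 18.96 in WT and 19.28 to 19.65 in DM. Without DM replicate 2, the count of these was 6. Within DM, the mean of the monocyte and macrophage markers relative to all 6 libraries was 0.22, 0.49 and 0.31 in replicates 1 to 3, in the same order as Dusp1. Within WT it was -0.43, -0.06 and -0.53, where Dusp1 was highest in replicate 1. Called genes numbered 2 of 7 progenitor markers (28.6%, both lower), 3 of 8 mast cell and basophil markers (37.5%), 2 of 6 megakaryocyte markers (33.3%), 2 of 4 lymphoid markers (50%), 0 of 5 erythroid markers (0 at an unadjusted p under 0.05 in the limma fit) and 2 of 6 stromal and endothelial markers (33.3%, both lower), against 13.9% of all genes. Single libraries moved these small counts. Without DM replicate 2 there were 0 for progenitor and 1 each for mast cell and basophil, megakaryocyte, lymphoid, and stromal and endothelial markers. The progenitor count was also 0 without DM replicate 3 and 1 without WT replicate 1, WT replicate 3 or DM replicate 1. The mast cell and basophil count was 1 without WT replicate 2 or WT replicate 3, the lymphoid count 1 without DM replicate 1, and the stromal and endothelial count 1 without WT replicate 1, WT replicate 3, DM replicate 1 or DM replicate 3. Markers with means under 3 were not tested, among them C1qa, Hba-a1 and Cd3e, and no marker was listed at exactly 0. The part of these marker levels in the change of Dusp1 was not tested.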

How the data were processed

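The deposited values for 6 libraries are taken to be rlog (regularized log) values, on a log2 scale. This is read from the table's name and from the tools that the submitters named. The submitters' processing notes name cutadapt 2.6, STAR 2.7.3, DESeq2 1.30.0 and the build mm10, with no role or order, and the counting tool, the annotation and the use of strand are not given in the sources used here. Identical lines were merged, which took 142699 lines to 55487 genes, and 54349 gene identifiers (97.9%) were found in GENCODE M21 (GRCm38), the source of coordinates and exon lengths.

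DM was compared with WT by limma 3.58.1 (lmFit, eBayes with a mean-variance trend, 5.82 prior degrees of freedom) in R 4.3.3, on the deposited values, over 18766 genes whose mean reached 3. A gene was called at a Benjamini-Hochberg adjusted p under 0.05 over all genes tested. The depth behind the values is unknown, and no interval for counting error is given. The members, the 6 pathway lists and the 8 marker lists (mast cell and basophil, monocyte and macrophage, neutrophil, progenitor, erythroid, megakaryocyte, lymphoid, stromal and endothelial) were chosen with earlier results of these data known, so no list was tested as a set and its count is a description. Named genes were the members, Mllt3, up to 3 called genes per pathway list with the largest changes, and the nearest profile to each member. Not every item that this rule names is reported here. Others are said to have been named after their values were seen, and Ergic1, AC137853.2 and Gm42922 were named for sharing exon bases with members.

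The alternatives were no filter, a mean of at least 5, no trend, quantile normalization, centring on the library median, a replicate block, and leaving out each of the 6 libraries. The fit was tested before use on simulated data in which 200 of 18766 genes were changed. It called 22.4% of changes of 0.3, 67.2% of changes of 0.5 and 97% of changes of 1. Changes of the size seen in the members were thus often missed there. Many more genes were called in the real data, so these shares need not hold for it. Promoter sequences are RefSeq's on GRCm38.p6. Plots were drawn with matplotlib 3.10.9.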

Additional observations from a re-analysis of the deposited data

How the results depend on the processing

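Of 108 values of the 9 members under the 12 alternatives, 101 kept both direction and side of the threshold, 5 passed it newly, 2 no longer passed it and 0 reversed. The number of members called was 1, but 2 among genes with a mean of at least 5 and with libraries centred on their median, and 3 with the replicate block. Dusp2 passed in those 3 settings at -0.32, -0.35 and -0.32, and Spred1 with the replicate block at 0.25. Leaving out single libraries gave 0 to 2 members called, with Dusp1 at 0.36 to 0.48 and Dusp2 at -0.4 to -0.21, and 1119 to 3475 genes called in all, against 2611. DM replicate 2 left out gave 1119, WT replicate 1 left out 1185 and DM replicate 3 left out 1537. In the same fits the lists gave 1 to 4 genes called among other RAS and ERK inhibitors, 3 to 6 in the RAS to ERK relay, 0 to 4 in the p38 and JNK relay, 2 to 10 among ERK-responsive transcripts and 0 to 4 among receptors. With the replicate block these were 10 for the RAS to ERK relay, 6 for the p38 and JNK relay and 6 for receptors, and a mean of at least 5 gave 4 for the p38 and JNK relay. Quantile normalization gave 3 for ERK-responsive transcripts and 1 for receptors. The median change of all genes was 0.01, but -0.02 without the filter and -0.03 after centring, and that of the p38 and JNK relay was -0.02 after quantile normalization. The groups of 7 members, rather than 4, did not overlap without DM replicate 2. Groups separate more readily with fewer libraries, and the share of all genes was not computed without DM replicate 2, so these counts are not comparable. The cause of these shifts was not tested.

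The labels do not say whether the replicate numbers pair the libraries. Deviations of equal numbers correlated at 0.491, 0.116 and 0.041, and WT replicate 3 correlated best with DM replicate 2 (0.124). So few libraries cannot decide whether the numbers pair them. The replicate block raised the number of genes called to 3742. With 3 libraries a group and unknown depth, a member that missed the threshold is not shown to be unchanged.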
